A study of Homo sapiens with 18 samples.

Results

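The hypoxia response of sgXIST9 XIST KD cells was measured in 6 of the 18 RNA-seq libraries of the series, chosen by their labels: 3 libraries of sgXIST9 cells kept at 1% oxygen for 24 h, and 3 libraries of the same cells in normoxia. All genes of the count table were considered, and 14938 genes had enough counts to be tested. The study compared OVCAR3-KRAB cells carrying sgCtl, sgXIST7 or sgXIST9 under both oxygen conditions, with 3 replicates in each of 6 groups. OVCAR3 is a line grown from an ovarian carcinoma, and OVCAR3-KRAB cells stably express a dead Cas9 fused to the KRAB repressor domain, which a guide RNA brings to a chosen promoter. In all 18 libraries the cells carried dCas9-KRAB and a guide and were grown in DMEM with serum. sgXIST9 targets the XIST promoter, sgXIST7 targets it at another site, and sgCtl is the control guide. The cells were clonal, so that the effect of a guide and the traits of its clone cannot be told apart. The study calls the replicates of its RNA-seq biological, but the labels do not say how they were grown, so p-values measure the spread between these libraries.

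When oxygen falls, the prolyl hydroxylases that mark HIF alpha subunits for degradation by VHL lose activity, and the alpha subunits accumulate and pair with ARNT. The dimer binds the core sequence ACGTG or GCGTG near its target genes, which code for glucose transporters, glycolytic enzymes, angiogenic factors, pH regulators and the hydroxylases themselves. Prolonged hypoxia is also known to slow the cell cycle and to restrain ribosome and protein production. HIF alpha subunits are controlled mainly at the protein level, which RNA-seq does not measure.

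Total counts ranged from 16208517 to 22674565 over the 6 libraries. The normoxia libraries were alike, with a root mean square log2 difference of 0.36 to 0.37 between pairs, whereas hypoxia replicate 3 differed from hypoxia replicates 1 and 2 by 0.55 and 0.70, and those by 0.41 from each other. Where a list's count moved by more than 1.5 times, or a named gene lost its call, without this library, both values are given. Levels are given as CPM, counts per 1000000 counts of the library, on TMM-scaled totals, except for the markers of cell types, for which the plain totals were used. The epithelial markers EPCAM (212 to 255 CPM), KRT18 (150 to 171) and KRT8 (15.3 to 37.1) were present, but PAX8 stood at 1.46 to 2.82 CPM. The epithelial genes CDH1, CLDN3 and GRHL2 had at most 1 count in each library. WT1, MUC16, KRT7, SOX17, EMX2 and MECOM, other markers of ovarian carcinoma cells, had 9 counts or fewer in each library. Of 16 markers of other cell types, 9 had at most 3 counts in any library, and summed over the list they took 377 to 634 CPM in hypoxia and 648 to 708 in normoxia. Most of it was COL3A1, a collagen of stromal cells. CD68, a macrophage and lysosome marker, fell from 37.2, 55.8 and 45.9 to 14, 15.5 and 25.2 TMM-scaled CPM (-1.35, adjusted p = 0.00071), and COL1A1 was not called (1.22, adjusted p = 0.015) except without hypoxia replicate 3 (1.43, adjusted p = 0.0078), with only the compared groups or with a replicate block. The part of these markers in the results was not tested. In bulk RNA, fewer cells of a type and less RNA per cell cannot be told apart.

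XIST, the long noncoding RNA that coats the inactive X chromosome and the target of the guide (chrX:73820651-73852753, minus strand, hg38), was at 29, 53.6 and 52.4 CPM in normoxia and at 16.3, 21.4 and 32.2 CPM in hypoxia. The mean was 45 ± 13.9 CPM (SD, n = 3) against 23.3 ± 8.12 (n = 3), and the ranges overlapped. The log2 fold change of -0.95 (SE 0.41) missed the threshold (adjusted p = 0.061). For comparison, sgCtl cells had 479 ± 339 CPM of XIST in normoxia (n = 3) and 171 ± 68 in hypoxia (n = 3), while sgXIST7 cells had 0.161 ± 0.101 and 0.117 ± 0.131. The mean XIST level of sgXIST9 thus lay below that of sgCtl and above that of sgXIST7 in both conditions.

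A gene was called up-regulated or down-regulated by edgeR where its adjusted p was below 0.01 and its log2 fold change exceeded 1 in either direction. In sgXIST9 cells, 2193 genes (14.7%) were up-regulated and 1281 (8.58%) were down-regulated by hypoxia, with a median log2 fold change of 0.09 over all genes tested. Up-regulated genes were at low levels in normoxia, with a median of 1.86 CPM, against 41.7 CPM for down-regulated genes and 20.5 CPM for all genes. Normoxia counts entered the filter and the calls, so these levels and the class shares that follow are a description only. Of the up-regulated genes with a RefSeq class, 13.0% were long noncoding RNAs, compared with 6.53% of the down-regulated genes and 7.69% of all genes tested. Against the normoxia mean, the up-regulated genes stood at a median log2 of 1.73, 1.72 and 1.67 in the 3 hypoxia libraries, and the down-regulated genes at -1.40, -1.38 and -1.51. These genes were called on the same libraries, so the medians are a description only. Without hypoxia replicate 3 the counts were 2196 and 1229. For single genes, the exact two-sided permutation test over the 10 splits of 6 libraries cannot give a p below 0.1, which it gives where the groups do not overlap.

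**Figure D1:**
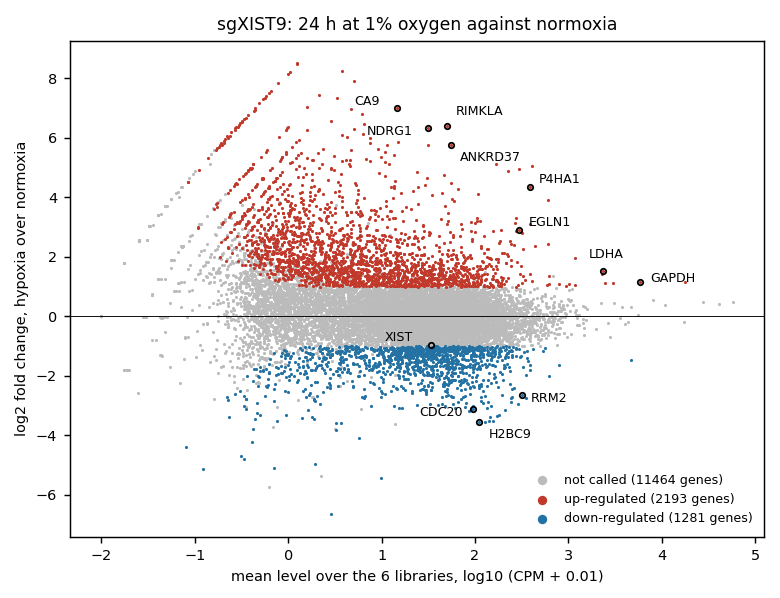
Log2 fold change of each gene in sgXIST9 (vertical axis) against its mean level over the 6 libraries (horizontal axis, log10 of CPM + 0.01). Red points are the 2193 up-regulated genes, many of them at low levels; blue points are the 1281 down-regulated genes; 12 genes are circled and named.

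The promoters of strongly responding genes are shown because they hold the core letters that HIF dimers bind, and were picked for that after their values were seen. Each sequence is the 250 bases before the RefSeq start site in GRCh38.p14, read 5′ to 3′ on the strand of the gene, and capitals mark ACGTG or GCGTG on either strand (CACGT or CACGC when read on the other). They come from CA9 (chr9:35673678-35673927, plus strand), RIMKLA (chr1:42380542-42380791, plus), MIR210HG (chr11:568458-568707, minus), VLDLR (chr9:2621537-2621786, plus), ANKRD37 (chr4:185396591-185396840, plus) and EGLN1 (chr1:231422288-231422537, minus).
CA9: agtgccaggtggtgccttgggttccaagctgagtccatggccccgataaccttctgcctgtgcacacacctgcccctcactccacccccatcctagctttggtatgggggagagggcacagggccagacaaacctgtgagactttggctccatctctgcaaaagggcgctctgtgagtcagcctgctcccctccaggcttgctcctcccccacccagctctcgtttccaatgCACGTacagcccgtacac
RIMKLA: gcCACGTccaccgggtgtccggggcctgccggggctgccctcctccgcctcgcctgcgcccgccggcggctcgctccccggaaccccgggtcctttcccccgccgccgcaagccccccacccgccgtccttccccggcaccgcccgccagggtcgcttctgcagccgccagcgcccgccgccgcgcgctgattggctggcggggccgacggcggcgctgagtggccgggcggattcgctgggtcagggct
MIR210HG: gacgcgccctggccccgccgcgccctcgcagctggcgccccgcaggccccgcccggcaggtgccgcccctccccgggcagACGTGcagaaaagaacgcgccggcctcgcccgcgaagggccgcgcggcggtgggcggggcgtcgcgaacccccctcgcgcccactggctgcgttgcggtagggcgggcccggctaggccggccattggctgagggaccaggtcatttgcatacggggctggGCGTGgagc
VLDLR: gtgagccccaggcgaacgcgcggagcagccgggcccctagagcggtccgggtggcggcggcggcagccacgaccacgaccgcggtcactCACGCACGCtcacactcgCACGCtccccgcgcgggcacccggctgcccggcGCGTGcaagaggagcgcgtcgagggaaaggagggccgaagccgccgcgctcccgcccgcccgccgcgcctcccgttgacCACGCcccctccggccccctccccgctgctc
ANKRD37: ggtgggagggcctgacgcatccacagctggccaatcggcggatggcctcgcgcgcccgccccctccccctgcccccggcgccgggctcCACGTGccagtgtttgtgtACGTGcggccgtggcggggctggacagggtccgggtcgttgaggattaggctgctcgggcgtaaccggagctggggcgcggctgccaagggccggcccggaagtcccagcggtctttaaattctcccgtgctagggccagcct
EGLN1: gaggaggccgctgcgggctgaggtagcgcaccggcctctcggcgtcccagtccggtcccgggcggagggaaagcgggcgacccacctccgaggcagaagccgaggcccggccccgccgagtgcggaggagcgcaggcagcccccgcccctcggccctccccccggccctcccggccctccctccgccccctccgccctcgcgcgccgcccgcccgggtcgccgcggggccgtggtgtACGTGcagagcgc
The match nearest to the start began 18 bases before it in CA9, 9 in MIR210HG and 13 in EGLN1, whereas the single match of RIMKLA lay 248 bases before it. VLDLR had 5 matches and ANKRD37 had 3, of which a pair overlap in the palindrome CACGTG. These short letters are common: 43.2% of the 35116 RefSeq windows held a match in the 250 bases before the start. Among glycolytic genes, 27 of 48 windows (56.3%) held one, and among mitotic genes, which fell, 21 of 30 windows (70%) did.

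Genes averaging 100 counts or more in these libraries were ranked by their change. The largest rise among them was that of CA9, the membrane carbonic anhydrase that acidifies the surroundings of hypoxic cells. CA9 was at 0.223, 0.212 and 0.234 CPM in normoxia and at 24.9, 18.1 and 44.9 CPM in hypoxia, a log2 fold change of 6.99 (SE 0.67, adjusted p = 2.3e-07). RIMKLA, a ligase that makes N-acetylaspartylglutamate, went from 1.25, 1.01 and 1.23 CPM to 94.3, 71 and 131 CPM (6.40, SE 0.42). The lowest hypoxia library of each gene lay far above the highest normoxia library. NDRG1, a stress-responsive growth regulator, rose from 0.893, 0.637 and 0.701 CPM to 64.9, 55.9 and 64.5 CPM (6.35, SE 0.22), and the lipoprotein receptor VLDLR from 1.25, 0.956 and 1.11 CPM to 57.8, 42.8 and 82.4 CPM (5.77, SE 0.48). MIR210HG, the host transcript of the hypoxia-induced miR-210, rose from 0.268, 0.319 and 0.642 CPM to 19.5, 14.9 and 32.2 CPM (5.78, SE 0.73). Its annotation includes an alternate contig, which makes its counts less certain. In CA9, RIMKLA, VLDLR and MIR210HG, replicate 3 was the highest of the hypoxia libraries. The other genes of the 12 with the largest rise were SAMD5, RNF223, GPR146, UPK1A, AVIL, MSH4 and SDAD1P1, of which SDAD1P1 is a pseudogene whose reads may come from its parent gene. SAMD5 and GPR146, an orphan receptor, had at most 3 counts in each normoxia library, and rose at least 77.4-fold and at least 64.5-fold. In SAMD5, hypoxia replicate 3 was low (13.8, 19.3 and 3.09 CPM), whereas GPR146 was even (9.94, 9.76 and 10.5 CPM). The other ones rose by a log2 fold change of 5.82 to 6.46.

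Of the 2193 up-regulated genes, 252 were not detected in normoxia (at most 3 counts in each library), and their rise was at least 5.25-fold in the median. Among them, 159 (63.1%) were also up-regulated by hypoxia in sgCtl and 172 (68.3%) in sgXIST7. These shares were 56.4% and 71.5% for all genes up-regulated in sgXIST9, and 11.3% and 15.1% for all genes tested. Genes not detected in sgXIST9 normoxia passed the filter through other libraries, so the shares are a description only. LOX, which crosslinks collagen, went from 0.0446, 0.106 and 0.0584 CPM to 2.78, 1.95 and 2.9 CPM, at least 16.3-fold higher. NDUFA4L2, a hypoxia-induced paralog of a respiratory chain subunit, went from 0, 0.0531 and 0.117 CPM to 2.64, 2 and 3.28 CPM, at least 16.9-fold higher. BHLHE41, a transcriptional repressor that acts in the clock, had 0 counts in normoxia and 0.593, 0.59 and 1.33 CPM in hypoxia, at least 5.35-fold higher. In the other direction, 19 genes were down-regulated to 3 counts or fewer in each hypoxia library.

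**Figure D2:**
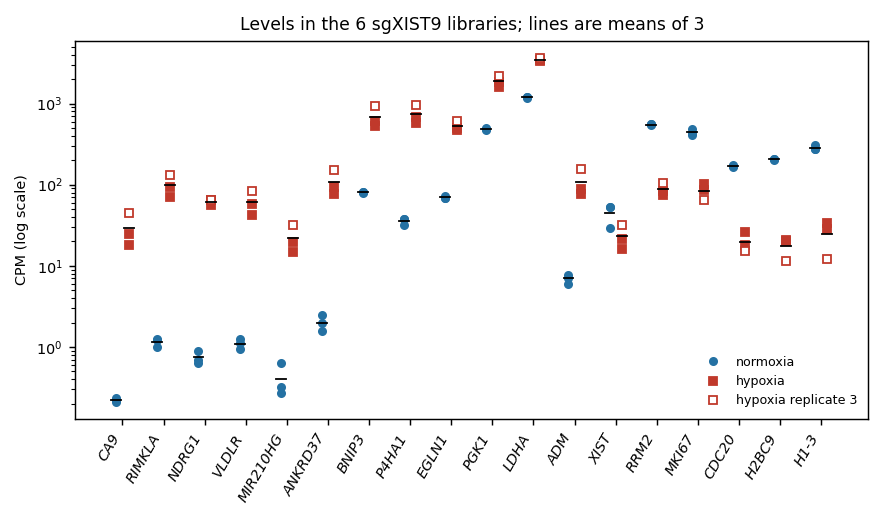
CPM (log scale) of 18 genes in each of the 6 sgXIST9 libraries. Blue circles are normoxia, red squares hypoxia, open squares hypoxia replicate 3, and lines are means of 3 libraries; the groups overlap only for XIST.

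In the HIF pathway itself, the genes that rose included negative regulators. Of 9 members tested, 3 were up-regulated (33.3%, beside 14.7% of all genes) and none was down-regulated, with a median log2 fold change of 0.56. EGLN1, the prolyl hydroxylase that marks HIF alpha subunits, went from 71.7, 69.2 and 67.9 CPM to 474, 492 and 610 CPM (2.92, SE 0.12, adjusted p = 3.5e-11). CITED2, which competes with HIF for its coactivator, rose from 6.82 ± 1.46 to 50 ± 7.07 CPM (n = 3 each, log2 fold change 2.86), and EPAS1, which codes for HIF-2 alpha, from 14 ± 0.341 to 33.2 ± 5.45 CPM (1.25). HIF1A mRNA was at 226, 223 and 219 CPM in normoxia and at 189, 182 and 183 CPM in hypoxia, a log2 fold change of -0.27 that was not called. EGLN3 was not called either (0.59, SE 0.50), with 0.82 CPM in hypoxia replicate 3 against 2.23 and 2.22 CPM in the other hypoxia libraries.

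Genes of glucose uptake and glycolysis mostly rose. Of 24 genes tested, 19 were up-regulated (79.2%) and 1 was down-regulated (4.17%), beside 14.7% and 8.58% of all genes, with a median of 1.68. The glucose transporter SLC2A1 rose from 20.2, 21.9 and 18.3 CPM to 158, 168 and 208 CPM (3.14, SE 0.20). Isoforms with low normoxia levels moved furthest, with the regulator PFKFB4 at 4.90 (SE 0.31) and the aldolase ALDOC at 5.13 (SE 0.47). The abundant enzymes moved less on the log scale: PGK1 rose by 1.96 (SE 0.11), from 485 ± 15.1 to 1885 ± 295 CPM (n = 3 each), and LDHA, which makes lactate, by 1.54 (SE 0.09), from 1191 ± 10.7 to 3465 ± 157 CPM. PDK1, a kinase that inhibits pyruvate dehydrogenase, rose by 2.86. GPI, the enzyme that interconverts glucose and fructose phosphates, went the other way, from 329, 358 and 339 CPM to 154, 157 and 153 CPM (-1.15, SE 0.10, adjusted p = 5.6e-08). ENO1 (0.33), PFKM (-0.87), PFKP (0.84) and the lactate carrier SLC16A1 (0.02) were not called. Among glycogen genes 6 of 10 rose (60%) and none fell (median 1.67). Those that rose included the synthase GYS1 (2.45, SE 0.21) and PPP1R3B, which targets the phosphatase to glycogen (3.56, SE 0.20).

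In the respiratory chain, found by subunit symbols, 5 of 80 genes tested were down-regulated (6.25%) and 1 was up-regulated (1.25%), with a median of -0.33. Both shares lay below the 8.58% and 14.7% of all genes. The genes that fell were ATP5MC1 (-1.75), CYC1 (-1.24), NDUFS8 (-1.16), ATP5F1D (-1.08) and NDUFA9 (-1.01), which belong to complexes I, III and V. The gene that rose was NDUFA4L2. HIGD1A, a small protein of the mitochondrial inner membrane that is often listed among hypoxia targets, fell from 235, 224 and 221 CPM to 117, 108 and 114 CPM (-1.003, SE 0.11). These calls lay at the fold threshold: ATP5F1D stood at -0.996 without hypoxia replicate 1, NDUFA9 at -0.984, -0.995 and -0.997 without hypoxia replicates 1 and 3 and normoxia replicate 1, and HIGD1A at -0.965 and -0.978 without hypoxia replicate 2 and normoxia replicate 1.

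The list of mitophagy and growth restraint genes had a median of 3.25, with 14 of 16 genes up-regulated (87.5%, beside 14.7% of all genes) and HIGD1A down-regulated. The list also holds genes that are widely used as hypoxia targets, such as ANKRD37, FAM162A and ERO1A, so its count does not speak for mitophagy alone. BNIP3, a mitophagy receptor, rose from 81.6, 78.1 and 81.5 CPM to 611, 529 and 928 CPM (3.10, SE 0.19), and its relative BNIP3L from 26.9, 18.8 and 24.3 CPM to 713, 539 and 1091 CPM (5.06, SE 0.35). DDIT4, an inhibitor of mTORC1, rose by 3.19 (SE 0.27), the MYC antagonist MXI1 by 4.07 and the repressor BHLHE40 by 3.90. ANKRD37 rose by 5.76 (SE 0.38). The receptor gene FUNDC1 was not called (0.07).

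Among angiogenic and vasoactive factors, 9 of 17 genes rose (52.9%) and 2 fell (11.8%), beside 14.7% and 8.58% of all genes (median 1.28). VEGFA rose from 23.4, 27.2 and 27.9 CPM to 133, 102 and 239 CPM (2.59, SE 0.28), ANGPTL4, a lipase inhibitor that acts on vessels, by 4.15 (SE 0.39), and the vasodilator peptide gene ADM by 3.93 (SE 0.28). The growth factor genes FGF2 (-1.20, SE 0.20) and PGF (-1.89, SE 0.53, adjusted p = 0.0059) fell. Among pH regulators, 5 of 12 rose (41.7%) and 1 fell (8.33%), with a median of 1.15. PGF was at most 2.72 CPM, and without any single library other than normoxia replicate 2 its adjusted p was 0.011 to 0.033. Without hypoxia replicate 3, the angiogenic list had 8 genes higher and 1 lower, and the pH list 4 higher and 1 lower.

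Enzymes that use oxygen as a substrate were among those that rose. Of 11 collagen hydroxylases and lysyl oxidases tested, 6 were up-regulated (54.5%, beside 14.7% of all genes) and none was down-regulated (median 1.63). The prolyl hydroxylase P4HA1 rose from 37.6, 32.2 and 38.2 CPM to 685, 573 and 965 CPM (4.36, SE 0.21), and the lysyl hydroxylase PLOD2 from 73.9 ± 3.45 to 1127 ± 218 CPM (3.93, SE 0.22, n = 3 each). Of 21 histone demethylases, 8 rose (38.1%) and 1 fell (4.76%), beside 14.7% and 8.58% of all genes (median 0.60). KDM3A, which acts on H3K9, rose from 74.5, 70.4 and 64.1 CPM to 385, 384 and 436 CPM (2.53, SE 0.18), KDM4B by 2.82 and KDM7A by 3.28, while KDM4D fell by 1.43 on the log2 scale.

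**Figure D3:**
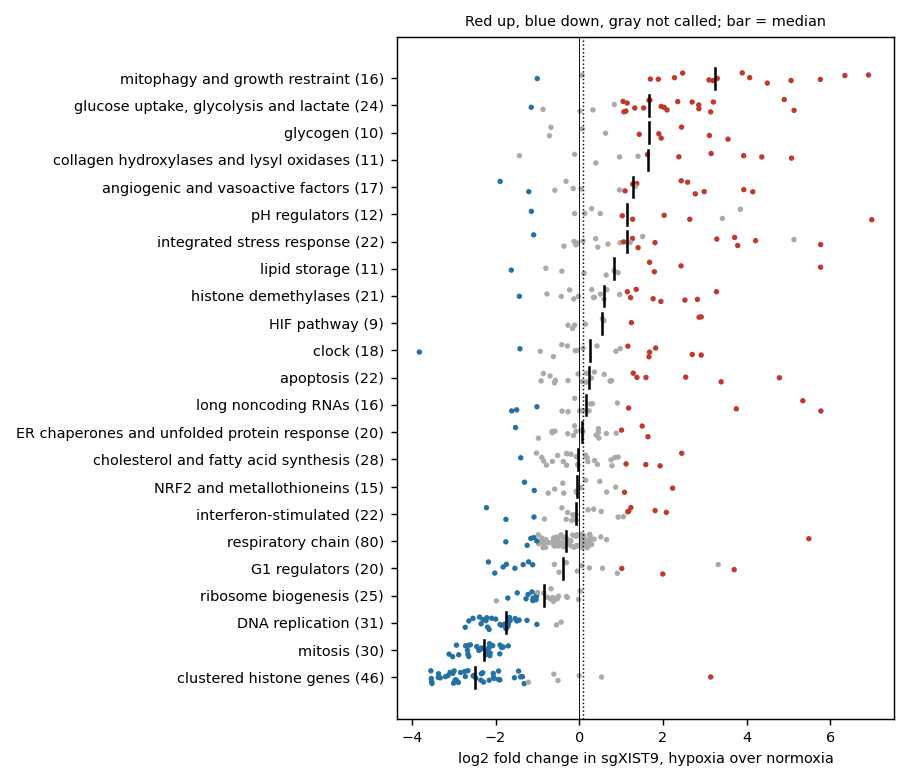
Log2 fold change in sgXIST9 of each tested member of 23 gene lists (number tested in brackets), ordered by list median (black bar). Red members were up-regulated, blue down-regulated and gray not called; the dotted line is the median of all genes tested, 0.09.

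Cell cycle genes fell together. All 30 mitotic genes tested were down-regulated (median -2.28), as were 29 of 31 DNA replication genes (93.5%, median -1.75), beside 8.58% of all genes. Without hypoxia replicate 3 these list counts were the same. MKI67, the proliferation antigen, went from 439, 481 and 409 CPM to 85.8, 102 and 64.8 CPM (-2.39, SE 0.32). CDC20, an activator of the anaphase-promoting complex, went from 171, 174 and 167 CPM to 18, 25.8 and 15.3 CPM (-3.11, SE 0.32), and BUB1B, a spindle checkpoint kinase, from 150, 156 and 152 CPM to 27.3, 24.2 and 24 CPM (-2.60, SE 0.10). In each of these genes the hypoxia libraries lay well below the normoxia libraries. The ribonucleotide reductase subunit RRM2 fell from 550 ± 6.1 to 88.4 ± 15.2 CPM (n = 3 each, -2.64, SE 0.13), the helicase subunit MCM3 by 2.38 on the log2 scale and the sliding clamp PCNA by 2.15 on the log2 scale. The thymidine kinase gene TK1 was not called (-0.54). In the same ranking, among the 12 genes with the largest fall, 9 were histone genes, and the rest were CDC20, DLGAP5 (-3.10, SE 0.15) and ARHGAP11A (-4.07, SE 0.81), whose annotation includes an alternate contig.

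The histone genes were then gathered by symbol, after these values were seen. Of 46 clustered histone genes tested, 40 fell (87.0%) and 1 rose (2.17%), beside 8.58% and 14.7% of all genes, with a median of -2.49. H2BC9 went from 208, 207 and 199 CPM to 20, 20.8 and 11.5 CPM (-3.54, SE 0.30), and the linker histone H1-4 from 651, 656 and 545 CPM to 96.4, 113 and 68.4 CPM (-2.74, SE 0.23). Histone mRNAs are made in S phase and mostly lack a poly(A) tail, and these libraries were made from rRNA-depleted total RNA, which retains them. H4C4, which rose, had at most 3 counts in each normoxia library. Near-identical histone copies can share reads, so single members are less certain than the list.

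The CDC20 promoter is shown because it holds the letters typical of genes that peak in mitosis. It covers chr1:43358731-43358980 on the plus strand of GRCh38.p14, up to the start site, and capitals mark CCAAT or TTTGAA on either strand (ATTGG or TTCAAA on the other).
CDC20: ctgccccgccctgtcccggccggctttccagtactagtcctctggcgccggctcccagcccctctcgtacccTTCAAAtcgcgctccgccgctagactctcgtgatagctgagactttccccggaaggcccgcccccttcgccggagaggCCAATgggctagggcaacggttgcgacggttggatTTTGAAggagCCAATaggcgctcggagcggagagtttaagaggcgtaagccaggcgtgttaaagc
In the 250 bases before the start, TTTGAA was found in 15 of 30 windows (50%) of the mitotic genes, against 13.3% of all windows and 1 of 35 windows (2.86%) of DNA replication genes. CCAAT was found in 73.3% of mitotic and 62.9% of DNA replication windows, against 32.0% of all windows and 22.9% of glycolytic windows. Windows were at hand for 25 of 30 mitotic, 27 of 31 DNA replication and 22 of 24 glycolytic genes tested, and both sets of letters were chosen after the fall of these genes was seen.

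G1 regulators were split. Of 20 tested, 8 fell (40%) and 3 rose (15%), beside 8.58% and 14.7% of all genes. Those that fell included E2F1 (-2.02, SE 0.17), CCND1 (-1.21, SE 0.11) and CCNE2 (-1.82). CCNG2, an inhibitory cyclin, rose from 7.05, 6.22 and 7.36 CPM to 92.3, 81.2 and 95.4 CPM (3.70, SE 0.26), and the CDK inhibitor CDKN1B by 1.02. CDKN1A was called (1.997, SE 0.49, adjusted p = 0.0024), but its 11.9, 12.9 and 3.53 CPM in hypoxia overlapped the 3.75, 1.49 and 1.81 CPM in normoxia. Without hypoxia replicate 1 or 2 or normoxia replicate 2 or 3 its adjusted p was 0.011 to 0.016. CDKN1B lay at the fold threshold, with 0.94 without hypoxia replicate 3, and 0.990 to 0.995 with DESeq2, median-of-ratios scaling or only the compared groups. Of 25 ribosome biogenesis genes, 10 fell (40%) and none rose (median -0.85), with the nucleolar helicase DDX21 lowest among those called (-1.71, SE 0.16).

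Stress and survival genes moved in part. Of 22 members of the integrated stress response, 9 rose (40.9%) and 1 fell (4.55%), with a median of 1.14, and 6 rose without hypoxia replicate 3. The glutathione-degrading enzyme CHAC1 was at 12.6, 10.4 and 42.2 CPM in hypoxia against 1.61, 2.44 and 2.63 CPM in normoxia (3.29, SE 0.53), and TRIB3, a pseudokinase, at 14.4, 14.4 and 37.9 CPM against 7.9, 8.07 and 9.05 CPM (1.41, SE 0.35). ATF4, the regulator of this response, stood at 165, 154 and 306 CPM in hypoxia against 157, 149 and 153 CPM in normoxia and was not called (0.44, SE 0.24). Replicate 3 was the highest hypoxia library in CHAC1, TRIB3 and ATF4. Without it TRIB3 stood at 0.79 (adjusted p = 0.023), and without normoxia replicate 1 or 2 its adjusted p was 0.012 and 0.011. ER chaperones changed little as a list, with 3 of 20 genes up (15%), 1 down (5%) and a median of 0.06, beside 14.7% and 8.58% of all genes.

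Of 22 apoptosis genes tested, 6 were up-regulated (27.3%, beside 14.7% of all genes) and none was down-regulated (beside 8.58%), with a median of 0.23. All 6 promote cell death, as do most genes of this list. BIK, a BH3-only protein, rose from 0.402, 0.372 and 0.584 CPM to 5.15, 5.99 and 3.09 CPM (3.39, SE 0.43). BMF, another one, rose from 0.357, 0.212 and 0.175 CPM to 7.98, 12.1 and 1.33 CPM (4.78, SE 0.89), with replicate 3 far below the other hypoxia libraries. BBC3 rose by 1.38, BOK by 1.29 and APAF1, the core of the apoptosome, by 1.60 on the log2 scale, and HRK, which was not detected in normoxia, rose at least 4.81-fold. HRK lost its call without hypoxia replicate 3 or normoxia replicate 1 or 2 (adjusted p = 0.012 to 0.018). The survival genes MCL1 (0.17), BCL2L1 (-0.27) and BCL2 (-0.91) were not called.

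The study followed CD24 and ALDH1A3 as markers of epithelial-like stem cells and NES as a marker of mesenchymal-like stem cells. By flow cytometry it also took high CD44 with low CD24 at the cell surface as a mark of mesenchymal-like stem cells. In the sgXIST9 libraries CD44 mRNA had 0 counts throughout. CD24 had 0.0893, 0.106 and 0.0584 CPM in normoxia and 1.69, 1.63 and 0.252 CPM in hypoxia, at least 7.63-fold higher (adjusted p = 0.0014), which in hypoxia replicate 3 was 4 counts. CD24 has near-identical copies in the genome, so its count is uncertain. ALDH1A3, an aldehyde dehydrogenase, rose from 0.223, 0.212 and 0.117 CPM to 1.14, 1.36 and 1.77 CPM (2.87, SE 0.43, adjusted p = 2.9e-05). NES was at 315, 318 and 333 CPM in normoxia and 182, 211 and 145 CPM in hypoxia, and its log2 fold change of -0.84 (SE 0.26, adjusted p = 0.013) was not called. Of 13 epithelial genes tested, 3 were up-regulated (23.1%, median 0.43), while 12 more genes of this list, CDH1 among them, had too few counts to be tested. Of 19 mesenchymal genes 3 were (15.8%, median 0.15), a share near the 14.7% of all genes: FN1 (3.40, SE 0.30), COL5A1 (1.89) and COL6A1 (1.003). COL6A1 lay at the fold threshold, with 0.99, 0.91 and 0.94 without hypoxia replicate 1, hypoxia replicate 2 and normoxia replicate 3, and below it with DESeq2, median-of-ratios scaling, no filter or only the compared groups. VIM did not pass the test (0.05, SE 0.17), at 5427 ± 51.5 CPM in normoxia and 5634 ± 1109 in hypoxia (n = 3 each).

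The remaining lists moved in both directions. Of 28 genes of cholesterol and fatty acid synthesis, 4 rose (14.3%) and 1 fell (3.57%), shares near or below the 14.7% and 8.58% of all genes (median -0.03). The desaturase SCD, which itself needs oxygen, rose by 2.45 (SE 0.20). Of 11 lipid storage genes, 4 rose (36.4%) and 1 fell (9.09%), with a median of 0.84, and 2 rose without hypoxia replicate 3. Among clock genes, 6 of 18 rose (33.3%) and 2 fell (11.1%), with a median of 0.26. HLF fell from 7.05, 5.74 and 5.55 CPM to 0.365, 0.272 and 0.694 CPM (-3.82, SE 0.27). Among interferon-stimulated genes, 5 of 22 rose (22.7%) and 3 fell (13.6%), with a median of -0.07. Those that rose included the RNA sensor DDX58 (2.08, SE 0.30) and STAT2 (1.81), and those that fell included MX1 (-1.75, SE 0.22). NRF2 targets and metallothioneins had 2 genes up and 2 down of 15 (13.3% each, median -0.06), and 1 up without hypoxia replicate 3. The share that rose was near the 14.7% of all genes. HMOX1, which degrades heme, stood at 2.23. Of 16 long noncoding RNAs, 4 rose (25%) and 3 fell (18.8%), with a median of 0.16. On the X chromosome, 78 of 490 genes (15.9%) rose and 43 (8.78%) fell, beside 14.7% and 8.58% of all genes.

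The response of sgXIST9 was set beside that of the other clones, which share no library with it. Of the genes up-regulated in sgXIST9, 1237 were also up-regulated in sgCtl (56.4% of the sgXIST9 list and 73.6% of the 1681 in sgCtl, 11.3% of genes tested), and 1568 in sgXIST7 (71.5% of the sgXIST9 list and 69.3% of the 2262 in sgXIST7, 15.1% of genes tested). Of the down-regulated genes, 748 were also down-regulated in sgCtl (58.4% and 59.0% of the lists, with 8.49% of genes tested called in sgCtl) and 1106 in sgXIST7 (86.3% and 60.9%, with 12.2% of genes tested called there). In either direction, 23.3% of genes tested were called in sgXIST9, 19.7% in sgCtl and 27.3% in sgXIST7. In all 3 clones, 1044 genes rose and 691 fell. These shares do not test a difference between clones, which was tested for each gene as the response of sgXIST9 minus that of the other clone.

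Against sgCtl, the response was higher in sgXIST9 for 99 genes (0.663%) and lower for 52 (0.348%). These counts depended on sgCtl hypoxia replicate 3, without which they were 469 and 256, while without any other single library they were 40 to 134 and 17 to 46. Of the 99 genes, 73 had a lower normoxia mean in sgXIST9 than in sgCtl, and of the 52 genes, 47 had a higher one, a description that shares its normoxia libraries with the test. PRKAA2, a catalytic subunit of AMPK, was at 80.5 ± 4.88 CPM in sgCtl normoxia and 87.9 ± 21 in sgCtl hypoxia, whereas in sgXIST9 it had 0.0446, 0 and 0.117 CPM in normoxia and 6.38, 4.08 and 6.37 CPM in hypoxia, at least 35.9-fold higher. The difference of its log2 responses, 6.46, depends on the prior count of the fit, since PRKAA2 was not detected in sgXIST9 normoxia. ADM was at 287 ± 33.3 CPM in sgCtl normoxia and 324 ± 56.7 in hypoxia, while in sgXIST9 it went from 7 ± 0.884 to 107 ± 42.3 (n = 3 in each group, difference 3.76). In both genes the sgXIST9 level in hypoxia remained below that of sgCtl in normoxia. In sgXIST7, PRKAA2 went from 3.57 ± 1.99 to 35.3 ± 13 CPM and ADM from 8.14 ± 2.02 to 188 ± 47.8 CPM. FBN1, which codes for a microfibril protein, rose in sgXIST9 from 0.57 ± 0.0629 to 21.1 ± 10.4 CPM, to a level above the 1.51 ± 0.69 CPM of sgCtl hypoxia (difference 4.32). SCG2, a secretogranin, fell in sgCtl from 11.7 ± 2.3 to 1.33 ± 0.302 CPM. In sgXIST9 SCG2 stood at 401 ± 5.49 and 651 ± 56.3 CPM (difference 3.84). In sgXIST7, FBN1 went from 0.448 ± 0.142 to 6.41 ± 1.72 CPM and SCG2 from 19 ± 5.39 to 40.7 ± 8.84 CPM.

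Among genes with a lower response in sgXIST9, NR3C1, the glucocorticoid receptor, was at 411 ± 21.8 and 449 ± 26 CPM in sgXIST9 normoxia and hypoxia, and at 0.655 ± 0.576 and 6.17 ± 3.28 CPM in sgCtl (difference -3.05). This call was lost without sgCtl hypoxia replicate 1 or 2, sgCtl normoxia replicate 1 or 2, sgXIST9 hypoxia replicate 1 or sgXIST9 normoxia replicate 1 (adjusted p = 0.010 to 0.016). FSCN1, an actin-bundling protein, rose in sgXIST9 from 44.8 ± 5.92 to 95.9 ± 4.89 CPM and in sgCtl from 8.46 ± 0.876 to 120 ± 24.9 CPM (difference -2.73), and its response was also lower than in sgXIST7 (-2.01). Without sgXIST9 normoxia replicate 3 the rise of FSCN1 was 0.995, and without sgXIST9 normoxia replicate 1 its difference from sgXIST7 was not called (adjusted p = 0.011). In sgXIST7, NR3C1 stood at 142 ± 17.3 CPM in normoxia and 281 ± 36.6 in hypoxia. The mitotic genes BIRC5, TPX2 and ANLN fell further in sgXIST9 than in sgCtl. In sgXIST7 BIRC5 went from 115 ± 10.9 to 25.1 ± 6.52 CPM, TPX2 from 241 ± 5.46 to 56.1 ± 9.32 and ANLN from 393 ± 38.8 to 71.4 ± 9.53. BIRC5, which codes for survivin, had like levels in normoxia (133 ± 3.66 CPM in sgXIST9 and 117 ± 8.14 in sgCtl) and 20.9 ± 3.42 against 50.6 ± 14.8 CPM in hypoxia (difference -1.46). Of the 30 mitotic genes all had a negative difference from sgCtl, as had 6918 of the 14938 genes tested. But only 3 of the 30 were called, beside 0.348% of all genes. The list median was -2.28 in sgXIST9, -2.06 in sgXIST7 and -1.40 in sgCtl. HK2, the inducible hexokinase, rose from 65.8 ± 1.53 to 477 ± 128 CPM in sgXIST9 and from 35.8 ± 1.34 to 727 ± 27.3 in sgCtl (difference -1.49). The difference for CD24 was 1.78 and was not called, whereas that for ALDH1A3 was (3.31). In sgCtl ALDH1A3 had 6.91 ± 0.819 CPM in normoxia and 5.12 ± 1.42 in hypoxia, above the 1.42 ± 0.318 of sgXIST9 in hypoxia. In sgXIST7 it went from 0.218 ± 0.129 to 1.41 ± 0.482 CPM.

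**Figure D4:**
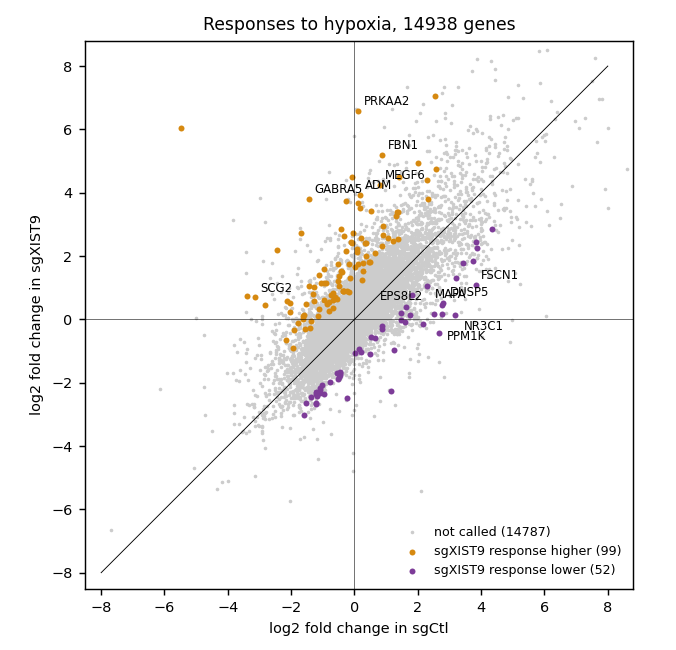
Log2 fold change with hypoxia in sgXIST9 (vertical) against sgCtl (horizontal) for 14938 genes; the line marks equal responses. Orange points are the 99 genes with a higher and purple points the 52 genes with a lower response in sgXIST9, with 12 of them named.

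Against sgXIST7, the response was higher in sgXIST9 for 13 genes (0.087%) and lower for 12 (0.0803%). Without sgXIST9 hypoxia replicate 3 these were 62 and 66, and without sgXIST7 hypoxia replicate 1 they were 29 and 48. Without any other single library they were 1 to 7 and 5 to 8. S100A10, an annexin partner, rose in sgXIST9 from 1.7, 1.49 and 1.58 CPM to 47.7, 34.9 and 57.1 CPM, and in sgXIST7 from 35.1 ± 12.1 to 179 ± 15.2 CPM (n = 3 each, difference 2.51). Its call was lost without sgXIST7 hypoxia or normoxia replicate 2, sgXIST9 hypoxia replicate 1 or any sgXIST9 normoxia library (adjusted p = 0.011 to 0.021). POU2F3, a lineage transcription factor, fell in sgXIST9 from 6.61, 4.99 and 4.03 CPM to 2.05, 1.95 and 1.83 CPM (-1.42) and rose in sgXIST7 from 10.2 ± 2.55 to 28.8 ± 4.89 CPM (difference -2.92). MLLT3, a subunit of elongation complexes, rose in all clones, from 6.11 ± 0.637 to 38.1 ± 4.7 CPM in sgXIST9 and from 1.48 ± 0.233 to 31 ± 6.5 in sgXIST7 (difference -1.75). Its call held only without sgXIST7 hypoxia replicate 1 or 3 or sgXIST9 hypoxia replicate 3, and without any other library its adjusted p was 0.011 to 0.021.

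**Figure D5:**
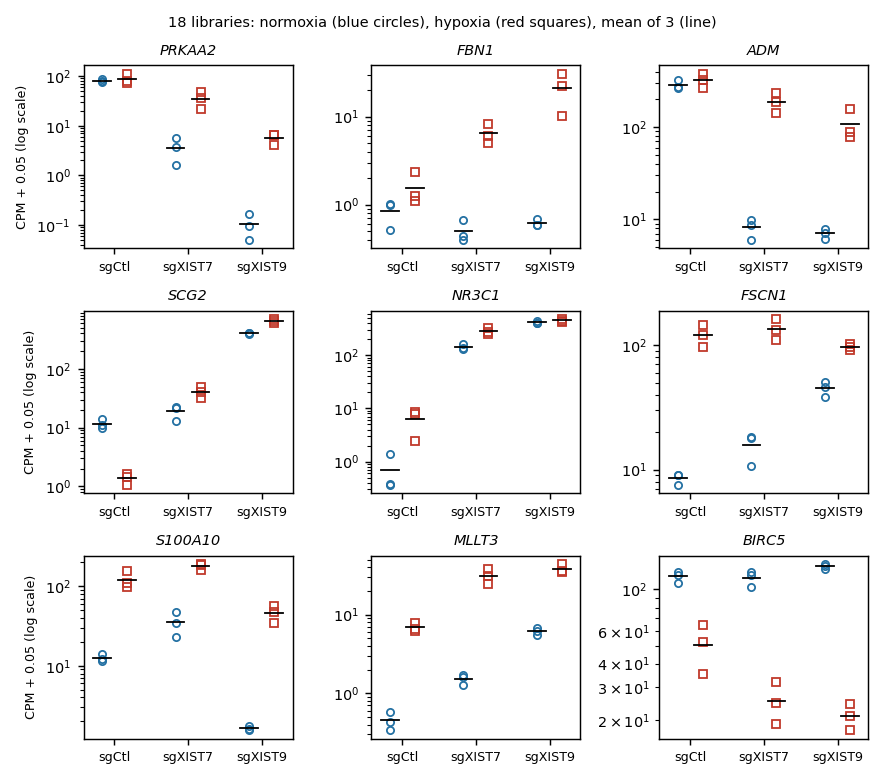
CPM + 0.05 (log scale) of 9 genes in the 18 libraries by clone. Blue circles are normoxia, red squares hypoxia and lines are means of 3. PRKAA2, ADM, SCG2 and NR3C1 lie apart between sgCtl and sgXIST9 already in normoxia. In normoxia ADM overlaps between sgXIST7 and sgXIST9, and SCG2 between sgCtl and sgXIST7. The normoxia means of BIRC5 are 117, 115 and 133 CPM.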

How the data were processed

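RNA-seq of 18 libraries of OVCAR3-KRAB cells was used, 6 of them from sgXIST9 cells. According to the labels and the methods of the study, the authors made stranded total RNA libraries after rRNA depletion. Reads went through Trimmomatic, HISAT2 with the hg38 genome, and featureCounts for counts per gene. The deposited table holds raw counts for 28277 genes after 2 broken lines without counts were left out. Versions, annotation release and strand setting are not given in the sources used here, so antisense and overlapping genes are less certain.

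Genes were kept with filterByExpr (minimum count 10, minimum total 15), scaled by TMM and tested with edgeR 4.0.16 (R 4.3.3; quasi-likelihood, Benjamini-Hochberg adjusted over 14938 genes) in 1 fit of all 6 groups. Calls needed an adjusted p below 0.01 and a log2 fold change beyond 1 in either direction. The response of sgXIST9 minus that of another clone was tested as an interaction contrast. CPM are counts per 1000000 of TMM-scaled totals, log2 fold changes come from the fit, and not detected means 3 counts or fewer in every library of the group. Bounds of "at least" set such a group to 3 counts per library, which is 0.134 to 0.189 CPM and covers counting error only. The script was tested on simulated counts.

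The named genes were those the study follows, members of the gene lists, and the 12 genes with the largest rise and fall. These 12 did not overlap between groups and had at least 100 mean counts. Also named were the 6 genes with the largest called difference in each direction and contrast. They too had at least 100 mean counts, over the libraries of the 2 clones compared. Called genes with fewer counts could differ more, such as TRIM27 against sgCtl (11.5). The members and lists were chosen with earlier results of these data known. Alternatives were other scalings (median of ratios, upper quartile), filters, thresholds, a replicate block, a fit of the compared groups only, DESeq2 1.42.0, and leaving out each library. Promoters are RefSeq windows of GRCh38.p14, with those on chromosome 8 left out of all counts. Of the genes tested, 11363 (76.1%) had a window, so no share is given over called genes.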

Additional observations from a re-analysis of the deposited data

Results flagged for a closer look

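The response to hypoxia differed between sgXIST9 and sgCtl cells in 21 of the genes named here, by the interaction contrast in edgeR, with values given as the log2 response of sgXIST9 minus that of sgCtl. Genes with a higher response in sgXIST9 were PRKAA2 (6.46), GABRA5 (5.24), FBN1 (4.32), SCG2 (3.84), ADM (3.76), MEGF6 (3.45), ALDH1A3 (3.31) and FN1 (2.05). GABRA5, a GABA receptor subunit, was at 20.9 ± 1.75 CPM in sgCtl normoxia and 7.73 ± 2.3 in hypoxia, and at 0.315 ± 0.163 CPM in sgXIST9 hypoxia (n = 3 each). In sgXIST9 normoxia GABRA5 had 1, 0 and 0 counts, so its difference depends on the prior count. It ranged from 4.82 to 7.03 when a library was left out, and its call was lost without sgXIST9 hypoxia replicate 1 or 2 or any sgXIST9 normoxia library (adjusted p = 0.010 to 0.016). Genes with a lower response in sgXIST9 were PPM1K (-3.11), NR3C1 (-3.05), FSCN1 (-2.73), MAFA (-2.58), EPS8L2 (-2.34), DUSP5 (-2.31), HK2 (-1.49), BIRC5 (-1.46), SCD (-1.40), CCNE2 (-1.32), TPX2 (-1.15), ANLN (-1.11) and TK1 (-1.07).

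Against sgXIST7, the same contrast was passed by 13 of the genes named here. The response of sgXIST9 was higher for S100A10 (2.51), SFRP1 (2.39), LOC153684 (1.70), SEMA3F (1.59), IGFBP2 (1.50) and ASAP3 (1.48). It was lower for POU2F3 (-2.92), TSPAN1 (-2.03), FSCN1 (-2.01), SLC6A11 (-1.90), NMB (-1.84), MLLT3 (-1.75) and EPAS1 (-1.69). Several of these calls were not stable when 1 of the 12 libraries was left out: SFRP1, LOC153684, ASAP3 and TSPAN1 each held theirs only without sgXIST7 hypoxia replicate 1 or sgXIST9 hypoxia replicate 3, and IGFBP2 also without sgXIST7 hypoxia replicate 3. Without any other library they lost it, with adjusted p of 0.011 to 0.037. SFRP1 and ASAP3 also lost it with only the compared groups (adjusted p = 0.025 and 0.022). EPAS1 mRNA rose in all clones, by a log2 fold change of 1.25 in sgXIST9, 2.29 in sgCtl and 2.93 in sgXIST7. What sets these differences was not tested, and guide and clone cannot be told apart.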

How the results depend on the processing

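The counts of genes called in sgXIST9 stayed within 1.5 times of 2193 and 1281 under every alternative run, with 1883 to 2239 higher and 1156 to 1274 lower when a library was left out. Upper-quartile scaling moved the median of all genes tested to 0.17 and the counts to 2447 and 1089. Differences from other clones depended on the processing. Against sgCtl (99 higher, 52 lower), the counts were 333 and 135 at an adjusted p under 0.05, 228 and 144 with DESeq2, 66 and 24 with only the compared groups, and 40 to 469 and 17 to 256 when a library was left out. Against sgXIST7 (13 higher, 12 lower), they were 76 and 54 at an adjusted p under 0.05, 74 and 78 with DESeq2, 5 and 10 with only the compared groups, 22 lower without a filter, and 1 to 62 and 5 to 66 when a library was left out. The cause was not tested.

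Between normoxia and hypoxia libraries of sgXIST9, deviations of the same replicate number correlated weakly, at 0.088, 0.045 and 0.003. Those of different numbers correlated at -0.117 to 0.034. Whether replicate numbers mark libraries handled together was not tested. With a replicate block, the counts were 2273 and 1317 in sgXIST9, 140 and 63 against sgCtl, and 28 and 28 against sgXIST7.

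Changes near 0 turned sign, none of them called. EPCAM stood at 0.0372 with upper-quartile scaling, and at -0.0909 to 0.0080 when a library was left out. KRT18 stood at 0.0614 with upper-quartile scaling, 0.00287 with a filter of mean CPM 1, and -0.0820 to 0.0127 when a library was left out. SLC16A1 stood at -0.0024 with only the compared groups, -0.00422 with DESeq2, and -0.0255 to 0.0844 when a library was left out. COL3A1 ranged from -0.35 to 0.0189, FUNDC1 from -0.0598 to 0.16 and VIM from -0.11 to 0.16 when a library was left out. KRT8 was called lower without hypoxia replicate 3 (-1.09). In all, 970 of 993 values of named genes in sgXIST9 kept direction and call under the other alternatives, and 714 of 750 when a library was left out.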

Other observations

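Among the 19 genes that fell to 3 counts or fewer in each hypoxia library of sgXIST9, NKAIN3-IT1, an intronic transcript, had the largest fall, from 135, 113 and 86 counts in normoxia to 2, 0 and 1 counts in hypoxia, at least 36.9-fold lower. Of these 19 genes, 10 (52.6%) were also down-regulated in sgCtl and 15 (78.9%) in sgXIST7. These shares were 58.4% and 86.3% for all genes down-regulated in sgXIST9, and 8.49% and 12.2% for all genes tested. Such genes passed the filter through other libraries, so the shares are a description only. In sgCtl too, hypoxia replicate 3 stood apart, with a root mean square log2 difference of 0.74 and 0.84 from the other hypoxia libraries. Those differed by 0.44 from each other. In sgXIST7, hypoxia replicate 3 differed by 0.64 and 0.51 from the other hypoxia libraries, and those by 0.45 from each other.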
